A study of Rattus norvegicus with 90 samples.

Results

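Primary rat hepatocytes kept in vehicle were compared after 24 h and after 9 h of incubation, to describe how the untreated cultures themselves differed between both time points. The comparison used 9 of the 90 libraries of the series, namely 5 hepatocyte vehicle libraries at 9 h (MS-91 to MS-95) and 4 at 24 h (MS-181, MS-182, MS-184 and MS-185), chosen by their labels. The other library of the 24 h vehicle group, MS-183, was left out because only 8.33% of its 2993135 estimated counts were on annotated transcripts, against 84.1% to 93.7% in the 9 libraries used.

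The series measured mRNA by RNA sequencing in 3 kinds of rat primary cells, with 18 groups of 5 libraries. Hepatocytes were treated with vehicle or with 0.025 mM (low dose) or 0.125 mM (high dose) thioacetamide-S-oxide, the reactive metabolite of the liver toxicant thioacetamide, for 9 or 24 h. The cells were cryopreserved hepatocytes of Sprague-Dawley rats, plated on collagen and allowed to attach before vehicle, which was culture medium alone, was added. Renal proximal tubule epithelial cells (0.125 and 0.5 mM) and cardiomyocytes (0.5 and 1.5 mM) also had vehicle, low-dose and high-dose groups at both times, with a maintenance medium for renal cells that was not that of hepatocytes. The sources used here do not say how many animals the cells came from, so the p-values measure the spread between these libraries, which may be technical.

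The hepatocyte is the parenchymal cell of the liver, which makes most plasma proteins and bile acids and holds the enzymes that metabolize drugs and toxicants. Hepatocytes that are taken out of the liver and kept in a monolayer are known to lose part of this specialised expression with time in culture, while genes used by most cells tend to be kept. A vehicle group at each time point serves as the control for such drift.

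The library numbers give a limit of this comparison. The hepatocyte vehicle libraries at 24 h are numbered MS-181 to MS-185, after all other libraries of the series, while the hepatocyte vehicle libraries at 9 h are MS-91 to MS-95 and the low- and high-dose libraries are MS-96 to MS-105 at 9 h and MS-111 to MS-120 at 24 h. The labels do not say what the numbers mean. Time in vehicle and anything else that set these 4 libraries apart cannot be told apart.

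The files name transcripts by Ensembl identifier and do not pair them with genes, so the transcripts are described by level, by size of change and by the cell type in which they are enriched. Marker genes of hepatocytes and of other liver cells could therefore not be looked up by name.

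The 4 measures of depth and library quality compared here overlapped between the groups, though single 24 h libraries stood off. The estimated counts ranged from 15413513 to 34074008 in the 9 h libraries and from 20593560 to 30185104 in the 24 h libraries. At least 1 estimated count was given to 21960 ± 607 transcripts at 9 h (SD, n = 5) and to 22010 ± 469 at 24 h (SD, n = 4). The 100 most abundant transcripts held 25.8% ± 0.39 of transcript counts at 9 h and 26.5% ± 1.99 at 24 h. As defined here, none of the 4 measures compared, which were these 3 and the share of counts on transcripts, differed beyond the spread between libraries (two-sided exact permutation tests, adjusted p = 0.762 to 0.905, where 0.0159 is the smallest unadjusted p that 5 against 4 libraries can give). The share on transcripts was lowest in MS-181, at 84.1%, while the other 8 libraries ranged from 91.5% to 93.7%, and without it the difference of means moved from -2.62 to -0.577 percentage points. MS-185 had 29.4% of its transcript counts in the 100 most abundant transcripts, and without it that difference turned from 0.701 to -0.284 percentage points. The number detected depended on the definition, since with a TPM of at least 1 in place of 1 estimated count the 24 h mean was below the 9 h mean, with a difference of -613 transcripts (unadjusted exact permutation p = 0.0317). Another measure, the share of transcript counts on transcripts under 300 bases, did not overlap. It was 0.288% to 0.324% at 9 h and 0.349% to 0.609% at 24 h, and this difference was not tested.

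Hepatocyte vehicle cultures differed broadly between 24 h and 9 h. Of 40071 transcripts, 16809 passed the filter on low counts and were tested, and 5969 of these (35.5%) were differentially expressed, with 2807 higher (16.7%) and 3162 lower (18.8%) at 24 h. A transcript was called when the Benjamini-Hochberg adjusted p of the edgeR quasi-likelihood test was at most 0.05 and the natural-log fold change was at least 0.41 in size, which is 0.592 on the log2 scale. Of the called transcripts, 5485 (91.9%) had no overlap between the 4 libraries at 24 h and the 5 at 9 h. Among all transcripts tested, 9067 (53.9%) had no overlap. With MS-183 kept in the 24 h group, 3234 transcripts were called, 1343 higher and 1891 lower, of which 3143 were also called without it.

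The balance of both directions depended on the scale. On the log2(TPM + 1) scale, where TPM is the deposited abundance corrected for transcript length, limma called 1307 transcripts higher and 3664 lower, so that 26.3% of calls were higher against 47% on the count scale, and the median over all transcripts moved from -0.01 to -0.18. TPM divides by length and forces a fixed total, and transcripts under 300 bases took 76042 to 99347 TPM in the 9 h libraries and 108408 to 232985 TPM in the 24 h libraries. These ranges did not overlap, and their part in the changed balance was not tested.

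**Figure D1:**
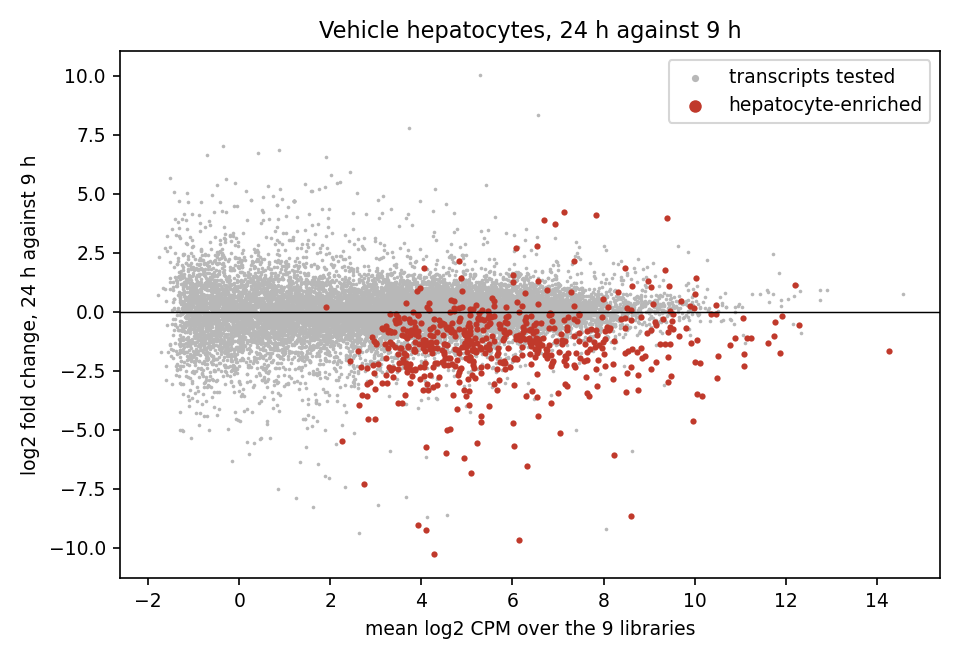
Log2 fold change of hepatocyte vehicle cultures, 24 h against 9 h (vertical axis), against mean abundance in CPM (counts scaled to a common library size) on a log axis (horizontal axis); each point is 1 of 16784 transcripts, and 25 with a group at a mean of 0 are left out. Called transcripts lie above and below 0 at every level, with 2807 higher and 3162 lower among all 16809 tested.

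Many of the changes were large. At least a 2-fold change was reached by 1416 of the transcripts called higher and 1923 of those called lower, and at least a 4-fold change by 386 and 653. The mean absolute log2 fold change over all transcripts tested was 0.73 and the median 0.47. The fall was therefore the more common direction among the larger changes, with 653 transcripts lower by at least 4-fold against 386 higher.

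The difference between the time points was also larger than that between replicate libraries. The mean absolute difference in log2 CPM between 2 libraries was 0.30 to 0.44 over the 10 pairs within 9 h and 0.37 to 0.45 over the 6 pairs within 24 h. Between a 24 h and a 9 h library it was 0.80 to 0.89 over 20 pairs, so that no pair across the time points was as close as any pair within one.

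In a principal component analysis of the 29 hepatocyte libraries, which included the treated ones, the first component held 19.5% of the variance and the second 10.2%. The 4 vehicle libraries at 24 h lay between -128 and -123 on the first component, and the other 25 libraries lay between -14.1 and 38.1. The vehicle libraries at 24 h were thus the only ones at the low end of this component. The treated libraries at 24 h also differed from the 9 h libraries, but along other directions or by less. High-dose libraries at 24 h lay between -14.1 and 2.97 on the first component, below all 9 h libraries, which lay between 18.7 and 38.1. On the second component, low-dose libraries at 24 h lay between -69.1 and -58.7 and high-dose libraries at 24 h between -26.9 and -10.5, again below all 9 h libraries, which lay between -4.71 and 65.7.

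**Figure D2:**
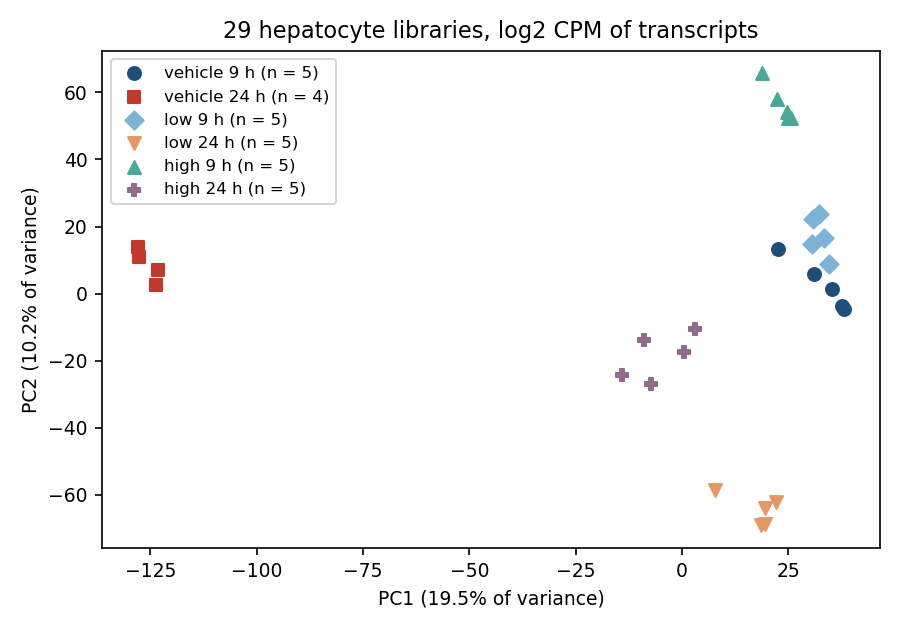
First and second principal components of the 29 hepatocyte libraries (each point 1 library, coloured by group; arbitrary units with the percent of variance on the axes). The 4 vehicle libraries at 24 h stand apart on the first axis, between -128 and -123, from the other 25 libraries between -14.1 and 38.1.

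Changes were found at all levels of abundance. Of the 2159 transcripts under 1 CPM, 14.5% were higher and 17.9% lower at 24 h. Falls were most frequent between 1 and 10 CPM, where 25% of 5037 transcripts were lower and 17.4% higher. The 7635 transcripts between 10 and 100 CPM were nearly balanced, with 17.1% higher and 16% lower. Of the 89 transcripts at 1000 CPM or more, 22 were higher and 20 lower. By length, 14.2% of the shortest length class (42 to 1355 bases) and 19.9% of the longest (3289 to 25658 bases), of 4 classes of like size, were higher, whereas 18.4% and 17.5% were lower.

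The calls covered a large part of the transcript pool. Transcripts called higher held between 139910 and 148700 CPM in the 9 h libraries and between 273000 and 336580 CPM in the 24 h libraries. Those called lower held between 222810 and 250260 CPM at 9 h and between 93967 and 95244 CPM at 24 h. These sums describe the calls and are no test, since the transcripts were selected on the same libraries.

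A small number of transcripts were present at one time point only. There were 19 transcripts with at least 5 CPM in every 24 h library and under 1 CPM in every 9 h library, and 26 with the reverse pattern. Both sets were chosen by extreme values in the vehicle libraries, so less extreme values in treated libraries are in part fixed by that choice. The counts that follow are a description. Of the 26 transcripts that were under 1 CPM at 24 h in vehicle, 15 were at 5 CPM or more in all 10 treated hepatocyte libraries at 24 h and 0 were under 1 CPM in all 10. Of the 19 that appeared at 24 h in vehicle, 0 were at 5 CPM or more in all 10 treated libraries and 6 were under 1 CPM in all 10. Estimated counts were whole numbers to within 0.001, that is not shared with another transcript, in all 9 libraries for 9 of the 19 and 10 of the 26. Over all transcripts tested this held for 39.2%. For the others, a level near 0 depends on how shared reads were divided.

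Transcripts enriched in hepatocytes were mostly lower at 24 h. A transcript was taken as hepatocyte-enriched when its mean in low-dose hepatocytes at 9 h was at least 10 CPM and at least 10 times its mean in renal vehicle and in cardiomyocyte vehicle libraries at 9 h, so that no hepatocyte vehicle library took part in the choice. Of the 568 members, 567 were tested, and 418 (73.7%) were lower, 31 (5.47%) higher and the rest not called. Over all transcripts tested, 18.8% were lower and 16.7% higher. The median log2 fold change of the members was -1.33, with quartiles at -2.15 and -0.57, beside a median of -0.01 over all transcripts tested. A choice by levels at 9 h favours transcripts that are high at that time. With the low-dose level at 24 h in its place, a choice made after seeing the data, 365 of 505 members (72.3%) were lower and 32 higher.

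In single libraries the fall was nearly the same. The median of the hepatocyte-enriched members in each 24 h library, relative to the 9 h mean, was -1.31 ± 0.03 (SD, n = 4) on the log2 scale. All 4 libraries at 24 h lay below all 5 at 9 h for 459 of the members (81%), beside 4591 (27.3%) of all transcripts tested, and the reverse held for 40 members, beside 4476 of all 16809 transcripts tested. The members made up 3.37% of the transcripts tested and 13.2% of those called lower. Of the 653 transcripts lower by at least 4-fold, 24.8% were members.

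The most abundant hepatocyte-enriched members showed the same direction. Of the 20 with the highest level, 15 were lower, 1 was higher and 4 were not called, with a median of -1.35. Of the 100 with the highest level, 72 were lower, 5 higher and 23 not called, with a median of -1.31. Over all transcripts tested, 18.8% were lower and 16.7% higher. By mean CPM over the 9 libraries, 22.5% of transcripts at 1000 CPM or more were lower and 24.7% higher. Between 100 and 1000 CPM, 14.6% were lower and 15.5% higher. The fall was thus found among high-level members as well as over the list as a whole.

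Summed over all 568 members, the level in hepatocyte vehicle libraries at 9 h was 183900, 177150, 184740, 173120 and 164960 CPM in MS-91 to MS-95. At 24 h it was 93864 CPM in MS-181, 88659 in MS-182, 96414 in MS-184 and 92516 in MS-185. The libraries of each time point lay close together and the groups did not overlap. Low-dose hepatocytes held 183110 to 189630 CPM at 9 h and 138520 to 156910 at 24 h, and high-dose hepatocytes 194950 to 210600 and 141740 to 156610. The vehicle libraries at 24 h were therefore below every treated library at 24 h. In renal vehicle libraries the same members held 1535.5 to 2022.7 CPM, a gap that the choice of the list largely fixed. In such bulk samples, fewer cells of a type and less RNA per cell cannot be told apart.

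**Figure D3:**
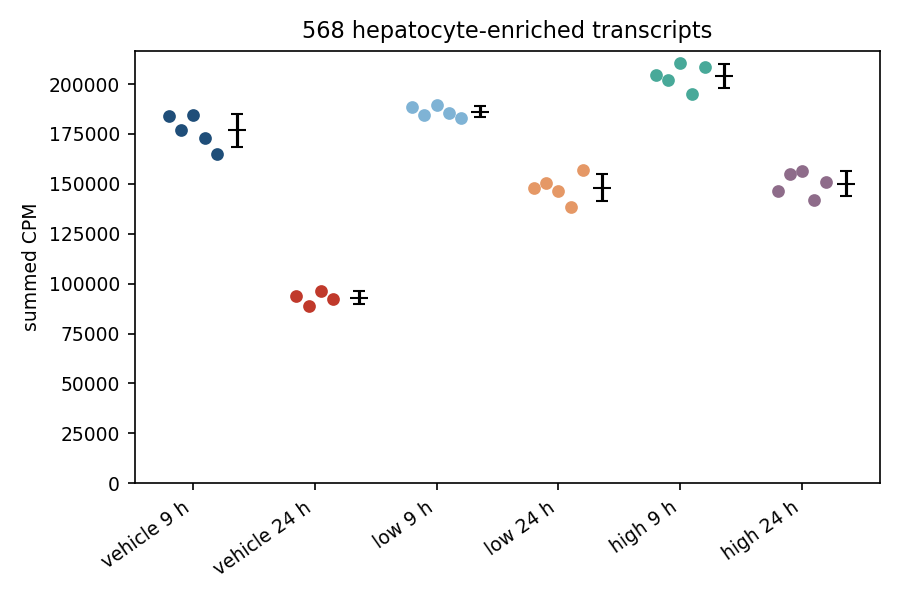
Summed CPM of the 568 hepatocyte-enriched transcripts in each library (vertical axis), by group (horizontal axis); points are libraries and the bar is the group mean. The 4 vehicle libraries at 24 h, between 88659 and 96414 CPM, lie below all other hepatocyte libraries. A low level of this list in renal and cardiomyocyte vehicle libraries follows from how it was chosen.

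Transcripts enriched in the other cell types are at low levels in hepatocytes by their choice, which is no finding. The 260 renal-enriched transcripts, chosen likewise, summed to 668 to 787 CPM at 9 h and 539 to 565 CPM at 24 h. The 281 cardiomyocyte-enriched transcripts summed to 382 to 463 CPM at 9 h and 524 to 624 CPM at 24 h. The renal sum was thus lower and the cardiomyocyte sum higher at 24 h, without overlap. Of the renal-enriched members that passed the filter, 28 were higher (24.1%), 39 lower (33.6%) and 49 not called. Of the 91 cardiomyocyte-enriched members that passed, 35 were higher (38.5%), 14 lower (15.4%) and 42 not called, beside 16.7% higher and 18.8% lower over all transcripts tested. As most members of both lists failed the filter, these counts say nothing of the lists as a whole. They also moved with the processing. The cardiomyocyte-enriched members called higher were 71 without a filter, 12 on the TPM scale and 23 with MS-183 kept, and those called lower were 15, 9 and 1. The renal-enriched members called higher were 10 on the TPM scale and 15 with MS-183 kept, and those called lower were 25 and 19.

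The transcripts at a like level in all cell types had fewer falls and a share of rises near that of all transcripts. This list, added after the values had been seen, held 4799 transcripts with at least 10 CPM in, and within 2-fold among, low-dose hepatocytes, renal vehicle and cardiomyocyte vehicle libraries at 9 h. Of these, 719 (15%) were higher and 310 (6.46%) lower at 24 h, with a median log2 fold change of 0.10. Over all transcripts tested, 16.7% were higher and 18.8% lower, and these differences from the list were not tested.

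The most abundant transcript that fell, and the second most abundant of all by mean CPM over the 9 libraries, was ENSRNOT00000003921, of 2069 bases. It was at 30030, 28227, 29463, 27875 and 26410 CPM in the 9 h libraries and at 9070.5, 8501.3, 9452.4 and 9118.9 CPM in the 24 h libraries. Its choice required groups without overlap. The groups were far apart and the libraries of each were close together. The mean was 28401 ± 1419 CPM at 9 h (SD, n = 5) and 9036 ± 395 CPM at 24 h (SD, n = 4), a log2 fold change of -1.65 (SE 0.04, edgeR adjusted p = 5.28e-10). It was hepatocyte-enriched. On the scale of the whole series, it was at 26710 CPM or more in all hepatocyte vehicle libraries at 9 h. In cardiomyocyte vehicle libraries it was at no more than 0.1034 CPM. Renal vehicle libraries held 18.2 to 108.1 CPM of it at 9 h and no more than 0.0358 CPM at 24 h.

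ENSRNOT00000003921 was also lower at 24 h in treated hepatocytes, but by less. On the scale of the whole series, low-dose hepatocytes held 22170 ± 1490 CPM and high-dose hepatocytes 28090 ± 1518 CPM at 24 h (SD, n = 5 each), with log2 fold changes against 9 h of -0.55 and -0.43, of which neither reached the fold threshold. The change in vehicle was lower than that at the low dose by -1.09 (edgeR adjusted p = 1.93e-13) and than that at the high dose by -1.22 (edgeR adjusted p = 2.77e-14) on the log2 scale. All 4 vehicle libraries at 24 h thus lay below the treated libraries of the same time.

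The most abundant transcript that rose, and the most abundant of all by mean CPM over the 9 libraries, was ENSRNOT00000050156, of 1545 bases. In the 9 h libraries alone it was below ENSRNOT00000003921. It was at 17847, 17997, 18326, 18525 and 19981 CPM in the 9 h libraries and at 25337, 28139, 26434 and 45798 CPM in the 24 h libraries, in the order of their numbers. The groups did not overlap, as its choice required, and MS-185 was far above the other 24 h libraries. The deposited table of MS-185 was also the only one with Windows line ends, and whether it was made apart from the others was not tested. The mean was 18535 ± 851 CPM at 9 h (SD, n = 5) and 31427 ± 9650 CPM at 24 h (SD, n = 4), a log2 fold change of 0.76 (SE 0.15, edgeR adjusted p = 0.00134). Without MS-185 the log2 fold change was 0.52 (edgeR adjusted p = 6.9e-06), below the fold threshold, so the call rests on this library.

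Its change in vehicle exceeded that at the low dose by 0.69 (edgeR adjusted p = 0.0026) and that at the high dose by 0.77 (edgeR adjusted p = 0.00111) on the log2 scale. Without MS-185 these differences were 0.45 (edgeR adjusted p = 0.0122) and 0.53 (edgeR adjusted p = 0.00412), and with MS-183 kept they were 0.41 (edgeR adjusted p = 0.513) and 0.49 (edgeR adjusted p = 0.44), all below the fold threshold. In renal vehicle cultures it was also higher at 24 h, by 0.63 (edgeR adjusted p = 0.00568), and the difference from hepatocytes was 0.09 (SE 0.22, edgeR adjusted p = 0.785), or -0.155 without MS-185, neither of which passed the test. This transcript was not enriched in any of the 3 cell types.

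The largest rise among transcripts whose mean log2 CPM reached 3 was that of ENSRNOT00000065584, of 1305 bases. It was at 0 in all 5 libraries at 9 h and at 74.3, 40.8, 103.2 and 49.9 CPM in the 24 h libraries, so all of the latter were above the former, as its choice as the largest rise required. Against 3 counts per library, taken as the floor for 0, it was 539-fold higher. As its counts were estimates from partly shared reads, this value is not a lower bound. Its level was uneven elsewhere, from 0 to 45.5 CPM in low-dose and from 27.1 to 208 CPM in high-dose hepatocytes at 24 h, and from 32.6 to 168.9 CPM in renal vehicle libraries at 24 h. Its estimated counts were not whole numbers, so part of its reads was shared with other transcripts. It passed the filter only through the 24 h group and was not tested when at least 5 counts were asked for in 47% of the libraries, when MS-183 was kept, or among whole-number transcripts, so its call is lost there.

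The largest fall by the same rule was that of ENSRNOT00000028283, of 2918 bases, which was hepatocyte-enriched. It was at 57.6, 48.8, 54.6, 107.3 and 54.3 CPM in the 9 h libraries and at 0 in all 4 at 24 h. Against the same floor it was 457-fold lower, which is again not a lower bound. The separation of the groups follows from its choice as the largest fall, and it passed the filter only through the 9 h group. In low-dose hepatocytes it was at 13.1 to 89.6 CPM at 9 h and at 0 to 3.25 CPM at 24 h, whereas high-dose libraries at 24 h held 0 to 46.9 CPM. Its reads were likewise shared in part, so it was not tested among whole-number transcripts.

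**Figure D4:**
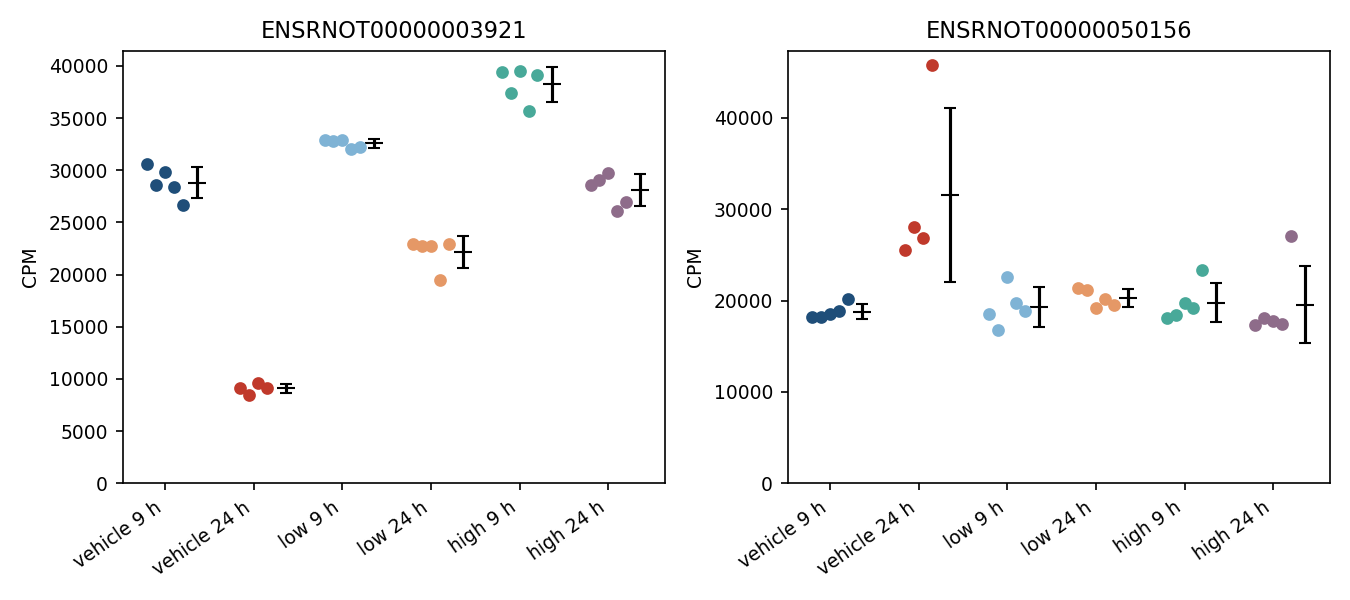
CPM of named transcripts in each hepatocyte vehicle library at 9 h and 24 h, each panel with its own axis from 0. Points are libraries and bars mark group means. ENSRNOT00000003921 is lower and ENSRNOT00000050156 is higher in every 24 h vehicle library, which their choice among transcripts without overlap required. MS-185 stands far above the other 24 h vehicle libraries for ENSRNOT00000050156.

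Treated hepatocytes changed less between the same time points. In low-dose cultures 2539 of 16755 transcripts tested (15.2%) were called between 24 h and 9 h, and in high-dose cultures 2614 of 16639 (15.7%), compared with 35.5% in vehicle. Their mean absolute log2 fold changes were 0.39 and 0.41, compared with 0.73. The difference of the changes was tested in one fit over the 29 hepatocyte libraries and was called for 6743 of 18452 transcripts (36.5%) against the low dose and for 6072 (32.9%) against the high dose. No library was shared between the changes compared.

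The transcripts called in vehicle were mostly not called at the low dose. Of the 2807 that were higher in vehicle, 308 (11%) were also higher at the low dose, which was 20.5% of the 1501 higher there (8.96% of those tested), and 4.95% were lower. Of the 3162 that were lower in vehicle, 511 (16.2%) were also lower at the low dose, which was 49.2% of the 1038 lower there (6.2% of those tested), and 365 (11.5%) were higher. Their median log2 fold changes were 1.01 and -1.18 in vehicle, where they had been selected, and 0.02 and -0.03 at the low dose.

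Overlap with the high dose was somewhat greater in these counts, though that was not tested. Of the transcripts higher in vehicle, 382 (13.6%) were also higher at the high dose, which was 26.7% of the 1431 higher there (8.6% of those tested), and 3.71% were lower. Of the transcripts lower in vehicle, 691 (21.9%) were also lower, which was 58.4% of the 1183 lower there (7.11% of those tested), and 256 (8.1%) were higher. Across all transcripts tested in both, the log2 fold changes in vehicle and at the low dose had a Pearson r of 0.18 and a Spearman rho of 0.0544 (n = 16278 transcripts). Those in vehicle and at the high dose had a Pearson r of 0.29 and a Spearman rho of 0.215 (n = 16157). These values describe transcripts of the same cell type and are no test over samples.

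**Figure D5:**
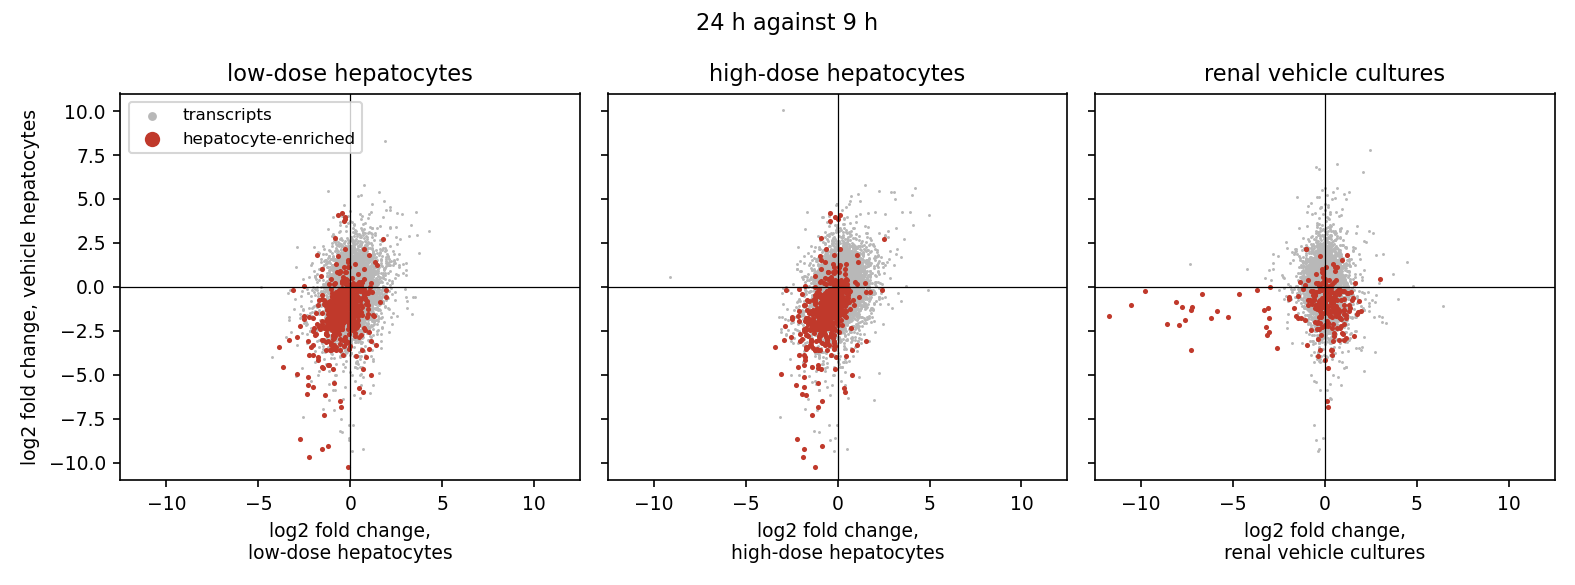
Log2 fold change, 24 h against 9 h, in hepatocyte vehicle cultures, set against that in another culture in each panel. The other cultures are low-dose hepatocytes, high-dose hepatocytes and renal vehicle cultures. Each point is a transcript tested in both. The clouds are wide along the vehicle axis and narrow on the others, with Pearson r of 0.18, 0.29 and -0.04.

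The hepatocyte-enriched members had negative medians in treated cultures too, but smaller in size, and fewer were called lower than in vehicle. Of the 567 tested, 262 (46.2%) were lower and 19 higher at the high dose, with a median log2 fold change of -0.54, and 218 (38.4%) were lower and 50 higher at the low dose, with a median of -0.39. Over all transcripts tested, 7.11% were lower at the high dose and 6.2% at the low dose, with medians of 0.02 and 0.01. The low-dose libraries at 9 h chose the list, so the low-dose values are a description. The difference between vehicle and high dose was called for 382 members, of which 328 were lower and 54 higher in vehicle, with a median difference of -0.805. Over all transcripts tested, 19% had a change lower in vehicle than at the high dose and 20.2% one lower than at the low dose. Against the low dose the difference was called for 407 members, of which 358 were lower in vehicle.

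Renal proximal tubule cells in vehicle changed least of the cultures compared. Between 24 h and 9 h, 1607 of 17658 transcripts (9.1%) were called there, 4.55% higher and 4.55% lower, and the difference from hepatocyte vehicle cultures was called for 6465 of 19707 transcripts (32.8%). Of the transcripts higher in hepatocyte vehicle cultures, 106 (3.78%) were also higher and 150 (5.34%) lower in the renal cultures. Of those lower, 3.73% were also lower and 5.85% higher, and 656 were not tested there. The changes of both cell types had a Pearson r of -0.04 and a Spearman rho of -0.086 across 15119 transcripts. The vehicle was a different medium for each of these cell types, so cell type and medium cannot be told apart here.

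The tables also held 25095 genomic intervals, which the sources used here do not describe further. Of the 10009 tested in hepatocyte vehicle cultures, 3533 (35.3%) were called, with 1823 higher and 1710 lower at 24 h, a share close to that of the transcripts. With library sizes taken from the transcripts in place of the intervals, 66.5% of the calls were higher, against 51.6%, so the balance of directions among intervals depended on the scaling.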

How the data were processed

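RNA was measured by polyA-selected, stranded, paired-end sequencing. The authors quantified reads with kallisto 0.42.4 against the Rnor_6.0 transcriptome and deposited estimated counts and TPM for each target and library. Estimated counts need not be whole, since reads that fit several transcripts are divided among them, and they were rounded to whole numbers here. Groups were taken from the labels. Transcripts passing filterByExpr were tested with the edgeR 4.0.16 quasi-likelihood test (R 4.3.3, TMM normalization) and Benjamini-Hochberg adjustment over all transcripts tested. Changes in different cultures were compared by interaction contrasts. CPM are counts scaled to a common library size with TMM factors, and levels of several groups are on one scale over all libraries used. limma 3.58.1 and DESeq2 1.42.0 served as alternatives, and measures per library were tested by exact permutation. Scripts were tested on simulated data.

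Named transcripts were, among called ones without overlap, the largest rise and fall where the mean log2 CPM reached 3, and the most abundant risen and fallen one. The groups, lists and rules were chosen with earlier results of these data known. Lists of genes by name and cell type markers were not scored and sequences are not shown, because 0 transcripts matched the gene table used here. Counts limit precision at low levels, and intervals of counting error were not computed.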

Additional observations from a re-analysis of the deposited data

Results flagged for a closer look

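Of 20 sets of library values checked for a library far from the others of its group, 3 had one, where chance gives about 1. MS-95 had the fewest estimated counts of the 9 h group, 15414000. MS-94 held 107.3 CPM of ENSRNOT00000028283, above the other 9 h libraries. MS-185 held 45798 CPM of ENSRNOT00000050156, above the other 24 h libraries.

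The change between 24 h and 9 h differed between cultures for many transcripts when the difference itself was tested with edgeR. The number was 6743 against low-dose hepatocytes, 6072 against high-dose hepatocytes and 6465 against renal vehicle cultures. For ENSRNOT00000050156 the difference in log2 fold change was 0.69 against the low dose and 0.77 against the high dose, and without MS-185 it was 0.45 and 0.53, below the fold threshold. For ENSRNOT00000003921 it was -1.09 and -1.22, and against renal vehicle cultures it was 10.01, where the transcript was listed close to 0 at 24 h, so that the size of the last value depends on the prior count.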

How the results depend on the processing

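The hepatocyte-enriched median was negative under every alternative run, and the values moved as follows, with the cause not tested except where the setting itself changes which transcripts or libraries enter. With MS-183 kept, 3234 transcripts were called, 1343 higher and 1891 lower. With whole-number transcripts only, 2479 of 6583 were called, 1162 higher and 1317 lower. With no fold threshold 10373 were called (5141 higher, 5232 lower), and with a fold of at least 2 there were 3339 (1416 and 1923). On the TPM scale 1307 were higher, or 26.3% of calls. DESeq2 called 2810 higher and 3180 lower.

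The mean absolute log2 fold change was 1.12 without a filter, 0.594 with limma on CPM, 0.526 on TPM, 0.81 when all 6 hepatocyte groups were fitted together, 0.831 with MS-183 kept and 0.669 with whole-number transcripts. The median of the hepatocyte-enriched transcripts was -1.37 with upper-quartile scaling, -1.38 without a filter, -1.46 on TPM, -1.42 with MS-183 kept, -1.41 with intervals in the fit, -0.969 at 4-fold enrichment, -1.3 with the high-dose level at 9 h and -1.27 with the low-dose level at 24 h, chosen after seeing the data. Of these transcripts, 14 were higher with MS-183 kept, 76 at 4-fold enrichment, and among the 215 whole-number members tested 9 were higher and 1.7e+02 (rounded to 2 digits, 76.7%) lower, against 418 of 567 (73.7%). Without a filter 6731 intervals were called, and with transcript-based sizes 66.5% of interval calls were higher. ENSRNOT00000050156 was not called on TPM (0.47), with MS-183 kept (0.48) or without MS-185 (0.52). ENSRNOT00000065584 was not tested with at least 5 counts in 47% of libraries, with MS-183 kept or among whole-number transcripts.

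Leaving out 1 library at a time gave 5666 to 6054 calls (2683 to 2888 higher, 2983 to 3303 lower, 45.2% to 47.7% higher), a mean absolute log2 fold change of 0.712 to 0.782 and a hepatocyte-enriched median of -1.36 to -1.31. Differences were called for 6548 to 6817, 5910 to 6189 and 6255 to 6532 transcripts against low dose, high dose and renal vehicle, and 2975 to 4322 intervals were called. The median of renal-enriched transcripts changed sign without a filter (0.229) and with MS-183 kept (0.315). That of cardiomyocyte-enriched transcripts ranged from 0.0552 at 4-fold enrichment to 1.49 with MS-183 kept. The difference in transcripts detected was -613 (exact permutation p = 0.0317) at a TPM of at least 1, and ranged from -198.8 to 204.5 without 1 library, being negative without MS-182 (-167.4) or MS-95 (-198.8). The difference of means (24 h minus 9 h) in the share held by the 100 most abundant transcripts ranged from -0.2839 (without MS-185) to 1.149 percentage points. No paired analysis was possible because the groups share no library numbers.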
